A study of Rattus norvegicus with 35 samples.

Results

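The later course of the retina after intraorbital nerve crush (IONC) was followed by setting the arrays of retinas taken at 7 d against those taken at 48 h. These were 6 of the 35 arrays of the series, chosen by their sample titles alone, with 3 arrays (replicates 1 to 3) in each group. All came from adult female Sprague-Dawley rats whose left optic nerve had been crushed inside the orbit, and each array carried RNA extracted from a pool of 4 left retinas of different animals. The groups differ in time after the lesion, with no other agent or allele named, and what the p-values measure is how far pools differ, not single animals. Naive retinas, from rats with no operation, served only as a point of orientation, and intraorbital nerve transection (IONT) at 7 d and 48 h, where the nerve is cut through, as a second lesion with 3 arrays at each time. Arrays at 24 h and 3 d after IONC, 3 each, lent their spread to the fit, which used 12 arrays.

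Retinal ganglion cells are the only neurons whose axons leave the eye in the optic nerve, and cutting or crushing the nerve separates the soma from its target. Injured ganglion cells lose the expression of many neuronal genes and later die, while Müller glia, the radial glia of the retina, and microglia, its resident macrophages, become reactive. Photoreceptors and bipolar cells, which lie upstream in the visual pathway, are not cut by the lesion.

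Signals are log2 values per probe set made with GCRMA, in which a probe set sums several short probes for 1 transcript, so levels of different genes cannot be set against each other. The 6 arrays had medians of 4.34 to 4.38 and 3′ minus 5′ differences of the β-actin control of 1.73 to 1.92, and the 6 IONT arrays had 1.76 to 1.91. The markers checked for rods, cones, bipolar and amacrine cells and Müller glia lay above the middle of the signal range, as did the ganglion cell markers Slc17a6, Nefl and Thy1, while Pou4f1, another, was low at 2.92 to 3.00 at 7 d and 2.89 to 2.93 at 48 h. The 3 lens markers overlapped between the groups, with log2 differences of 0.11 for Crygs, -0.97 for Mip and -0.63 for Lim2, and the part of lens in the results was not tested. The microglial Cd68 was at the bottom of the range. Naive replicates 4 and 5 had β-actin differences of 3.19 and 2.98, against 1.75 to 1.90 in naive replicates 1 to 3, so that only naive replicates 1 to 3 are used for orientation unless all 5 are named. The 7 d arrays correlated with each other at r of 0.995 to 0.997, and the 48 h arrays at 0.989 to 0.993. The median SD per probe set was 0.0715 at 7 d and 0.104 at 48 h. The 48 h arrays were not alike in their distance to 7 d. Replicate 3 lay at least 2-fold from the 7 d mean at 243 probe sets, replicate 2 at 830 and replicate 1 at 1150. Replicate 1 also stood apart in several gene groups, and the results that rest on it are given with and without it.

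Few probe sets passed the threshold between 7 d and 48 h. A probe set was called at a Benjamini-Hochberg adjusted p under 0.01 in limma, log odds (B) of more than 0 and a size of 1.2-fold or more. Of 31042 probe sets, 2 were called (0.00644%), 1 higher and 1 lower at 7 d (0.00322% each), and at an adjusted p under 0.05 there were 2 higher (0.00644%) and 6 lower (0.0193%). Without adjustment, 1602 probe sets were higher (5.16%) and 1070 lower (3.45%) at a p under 0.05. All 7 d arrays lay above all 48 h arrays at 2682 probe sets (8.64%) and below them at 1303 (4.2%). The count of calls depended on single 48 h and 7 d arrays. Without 48 h replicate 3 it was 43, without 48 h replicate 1 or 7 d replicate 3 it was 10 each, and without 7 d replicate 2 it was 1. Leaving out 24 h replicate 3 or 3 d replicate 3, which are not compared, gave 7 and 4 calls. Genes below are therefore mostly given as not called, with their values.

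The called gene was Rhbdf2 (probe set 1384765_at), which encodes an inactive rhomboid protein needed for the maturation of the protease that releases TNF. Its values were 3.46, 3.45 and 3.47 at 7 d, against 3.89, 3.95 and 3.96 at 48 h. The groups did not overlap, although both lie low in the signal range. It fell by 0.47 on the log2 scale (standard error 0.03, limma adjusted p = 0.000576). The step was already made by 3 d, when the values were 3.51, 3.47 and 3.47, a log2 difference of -0.45 from 48 h (limma adjusted p = 0.00169). That value made Rhbdf2 the only call of 3 d against 48 h (0.00322%). The call ended without 7 d replicate 2, where the log2 difference was -0.47. Over 18 other settings of the processing in which Rhbdf2 was tested, the call held in 10. It was lost, among others, with only the 6 arrays compared, with all 15 IONC arrays and with a 1.5-fold limit. A filter on low values removed Rhbdf2 before the test. The other called probe set, 1394671_at, has no gene symbol in the annotation. It read 3.68, 3.56 and 3.57 at 7 d, against 2.95, 2.98 and 3.03 at 48 h, a rise of 0.61 (limma adjusted p = 0.000576), and was also the only call of 7 d against 3 d (0.00322%).

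Genes of retinal ganglion cells were the only one of 43 gene lists with members at an adjusted p under 0.05. Of 28 listed genes 25 were measured. None was called, 2 had an adjusted p under 0.05 and 9 an unadjusted p under 0.05, all lower at 7 d, where 4.92% of all 14217 genes were lower at that threshold and 4.53% higher. In 8 members all 7 d arrays lay below all 48 h arrays, which held for 6.01% of all genes, and 7.16% lay above. These shares over all genes also stand beside the counts of every list below. The median log2 difference of the list was -0.26, against 0.02 over all genes, and it was -0.41 without 48 h replicate 1, -0.07 without 48 h replicate 2 and -0.05 without 48 h replicate 3. In bulk retina, fewer cells of a type and less RNA per cell cannot be told apart.

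Nrn1 (1386969_at), which encodes neuritin, a membrane-anchored protein of growing neurites, read 3.84, 4.20 and 4.04 at 7 d, against 5.79, 6.55 and 6.81 at 48 h. Every 7 d array lay more than a log2 unit below every 48 h array. The log2 difference was -2.35 (standard error 0.24, 95% confidence interval -2.89 to -1.82, limma adjusted p = 0.0339), which is 5.11-fold lower. Thy1 (1369652_at), a surface glycoprotein long used to mark ganglion cells in rodent retina, read 7.08, 6.91 and 6.90 at 7 d, against 7.81, 8.38 and 8.27 at 48 h. Its log2 difference was -1.19 (standard error 0.13, limma adjusted p = 0.0416). Both genes passed 0.05 but not 0.01, and both were called without 48 h replicate 1, with log2 differences of -2.65 for Nrn1 and -1.36 for Thy1. Nrn1 was also called without 48 h replicate 3, at -2.14.

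Slc17a6, the vesicular glutamate transporter that loads the synaptic vesicles of ganglion cells, read 7.69, 6.80 and 7.20 at 7 d, against 8.57, 9.44 and 9.67 at 48 h. The groups did not overlap, and 48 h replicate 1 was the nearest to 7 d. The log2 difference was -2.0 (standard error 0.29, limma adjusted p = 0.0963), not called. The neurofilaments, which fill and widen axons, lay lower as well. Nefl, the light subunit, read 9.44, 9.30 and 9.20 at 7 d, against 10.15, 10.93 and 11.05 at 48 h, a log2 difference of -1.39 (limma adjusted p = 0.0983). Without 48 h replicate 1 it was called, at -1.67. Nefh, the heavy subunit, read 6.67, 5.82 and 6.11 at 7 d, against 7.44, 8.22 and 8.28 at 48 h, a log2 difference of -1.78 (limma adjusted p = 0.118). Prph, or peripherin, an intermediate filament of neurons with long axons, read 6.51, 5.03 and 4.79 at 7 d, against 7.58, 8.32 and 8.09 at 48 h. Its log2 difference of -2.55 had a standard error of 0.42 (limma adjusted p = 0.157). In all 4 genes the groups did not overlap.

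**Figure D1:**
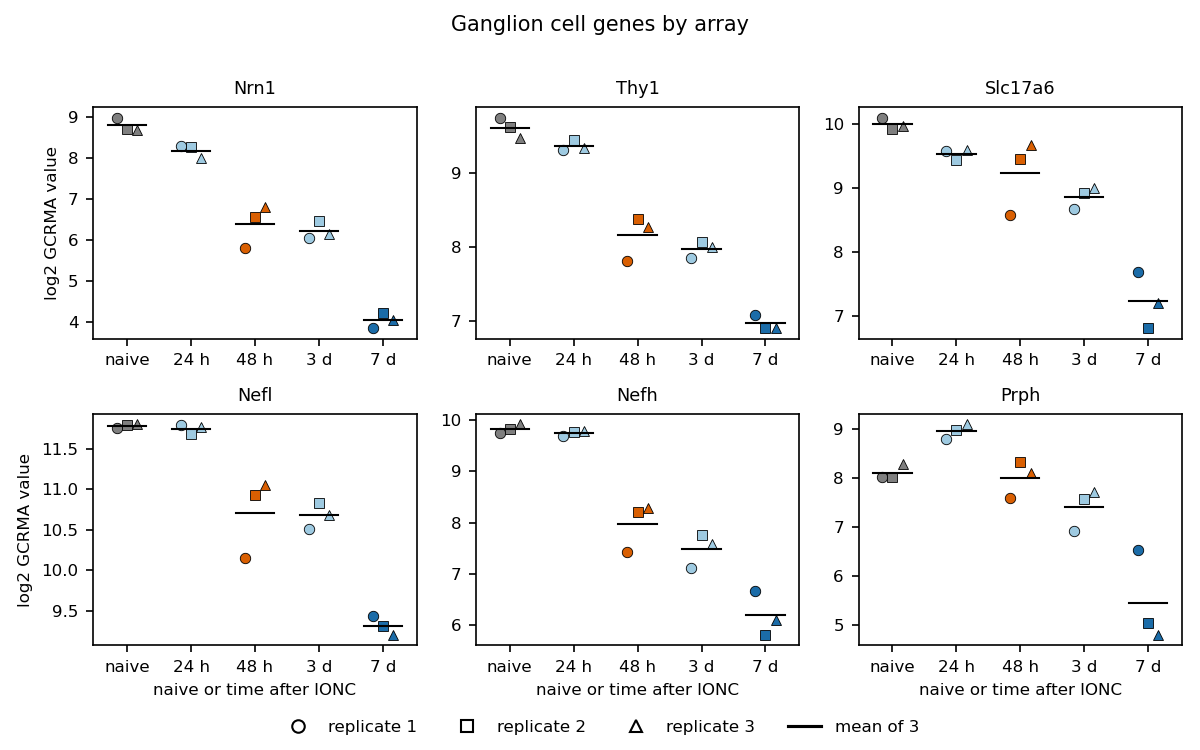
Log2 GCRMA value of 6 ganglion cell genes on the y axis, by array, in naive retinas (replicates 1 to 3) and at 24 h, 48 h, 3 d and 7 d after IONC, with 1 point per array, a marker shape per replicate number and a line at the mean of 3. The 7 d arrays lie below all 48 h arrays in each panel, as for Nrn1 at 3.84 to 4.20, against 5.79 to 6.81, and 48 h replicate 1 is the lowest of its group.

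The other ganglion cell genes were less uniform. Of those named next, Nell2 was chosen after its values were seen, and the rest were chosen by no fixed rule. Nell2, a secreted neuronal glycoprotein, had a log2 difference of -1.38 (limma adjusted p = 0.334), Nefm, the middle neurofilament subunit, of -0.80, and Sncg, the γ-synuclein of ganglion cells, of -0.50, the last 2 with overlapping arrays. Rbpms, an RNA-binding protein used to count ganglion cells, was lower by 0.88 with no overlap and an unadjusted p of 0.12. Tubb3, the neuronal β-tubulin, had a log2 difference of 0.28, Stmn2, a tubulin-binding protein of growing axons, of 0.16, and Elavl2, a neuronal RNA-binding protein, of 0.63. None of these 3 had an unadjusted p under 0.05.

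For Nrn1, Thy1, Slc17a6, Nefl, Nefh and Prph, the mean at 3 d lay nearer to that at 48 h than to that at 7 d. Nrn1 read 6.04, 6.46 and 6.15 at 3 d, so that its log2 difference was -0.16 for 3 d minus 48 h (limma adjusted p = 0.682) and -2.19 for 7 d minus 3 d (limma adjusted p = 0.0622). For Nefl the same differences were -0.03 (limma adjusted p = 0.925) and -1.36 (limma adjusted p = 0.112), and for Slc17a6 -0.37 (limma adjusted p = 0.567) and -1.63 (limma adjusted p = 0.18). The first step was larger in Nefh, at -0.49 against -1.29 for the second, and in Prph, at -0.61 against -1.95. The 2 steps share the 3 d arrays, and neither was called in any of these genes. The mean over the 25 measured members, per array, was 6.62, 6.46 and 6.40 at 7 d, against 6.66, 7.27 and 7.32 at 48 h. It was 6.99, 7.08 and 6.96 at 3 d, 7.76 to 7.80 at 24 h and 7.91 to 7.97 in naive replicates 1 to 3. On this mean 48 h replicate 1 lay close to 7 d, apart from the other 48 h arrays.

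Genes of axonal transport and tubulin had 28 of 31 members measured, with a median log2 difference of -0.09. At an unadjusted p under 0.05, 4 were lower and 0 higher (4.92% and 4.53% of all genes). Map1a, a microtubule-associated protein of mature neurons, read 6.04, 6.22 and 6.20 at 7 d, against 7.03, 7.72 and 6.81 at 48 h, a log2 difference of -1.03 (limma adjusted p = 0.278). Dync1h1, the heavy chain of the dynein motor that carries cargo back to the soma, was lower by 0.54 (limma adjusted p = 0.334), also without overlap. Of 29 regeneration-associated genes, 2 were higher and 2 lower at an unadjusted p under 0.05, with a median of 0.02. Atf3 and Tnfrsf12a of this list are described below.

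Reactive glia and matrix genes lay mostly below 48 h. Of 26 genes of reactive gliosis 23 were measured, and 4 were lower and 0 higher at an unadjusted p under 0.05 (4.92% and 4.53% of all genes). The median log2 difference was -0.29. It was -0.57 without 7 d replicate 1 and -0.06 without 7 d replicate 3. Vim, the vimentin filament of Müller glia, read 12.73, 12.46 and 12.48 at 7 d, against 13.35, 13.19 and 12.86 at 48 h, and naive replicates 1 to 3 averaged 12.42. The groups did not overlap, with a log2 difference of -0.58 (limma adjusted p = 0.39). Cp, or ceruloplasmin, a copper-binding ferroxidase, was lower by 0.62 with overlapping arrays (limma adjusted p = 0.546). Gfap, the filament of reactive Müller glia and astrocytes, named after its values were seen, read 11.98, 11.11 and 10.65 at 7 d, against 11.14, 11.52 and 10.97 at 48 h. Its groups overlapped, the log2 difference was 0.04 (limma adjusted p = 0.949), and both lay above naive replicates 1 to 3 at 6.95 to 7.16. Of 17 genes of Müller glia homeostasis 2 were lower at an unadjusted p under 0.05, with a median of 0.03. These were Dbi, an acyl-CoA-binding protein, lower by 0.47 (limma adjusted p = 0.368), and Gpr37, an orphan receptor, lower by 0.35 (limma adjusted p = 0.53).

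Of 33 genes of the extracellular matrix and integrins 31 were measured. At an unadjusted p under 0.05, 10 were lower and 0 higher (4.92% and 4.53% of all genes). In 9 members all 7 d arrays lay below all 48 h arrays, and in 3 above them (6.01% and 7.16% of all genes). The count of 10 was 6 without 48 h replicate 2 and 4 without 7 d replicate 2. The median log2 difference was -0.28, and -0.15 without 48 h replicate 1. Lama1, the α1 chain of laminin, a protein of basement membranes, read 3.12, 2.68 and 2.65 at 7 d, against 4.09, 3.45 and 3.48 at 48 h, a log2 difference of -0.86 (limma adjusted p = 0.334). The laminin chains Lama5, Lamc1 and Lamb2, chosen after their values were seen, had log2 differences of -0.48, -0.74 and -0.62, all without overlap. Col18a1, the collagen from which endostatin is cut, read 6.29, 6.27 and 6.27 at 7 d, against 7.51, 8.07 and 6.96 at 48 h, a log2 difference of -1.24 (standard error 0.31, limma adjusted p = 0.364). Naive replicates 1 to 3 averaged 6.21, close to the 7 d level, while naive replicates 4 and 5 read 6.88 and 7.45.

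Agrn, the agrin proteoglycan of basement membranes, which is not on that list, read 6.71, 6.72 and 6.66 at 7 d, against 7.44, 7.69 and 7.43 at 48 h. The log2 difference was -0.82 (standard error 0.12, limma adjusted p = 0.11), not called. Notch1, a receptor that keeps glia and progenitors undifferentiated, read 6.37, 5.92 and 5.95 at 7 d, against 7.16, 7.08 and 6.94 at 48 h, a log2 difference of -0.98 (limma adjusted p = 0.15). Its 3 d values of 6.20, 5.94 and 5.84 were already at the 7 d level. Tbata was likewise down by 3 d. It read 4.36, 4.31 and 4.48 at 7 d, against 5.72, 5.66 and 5.67 at 48 h (limma adjusted p = 0.118), and 4.55, 4.31 and 3.59 at 3 d. Dusp23, a small protein phosphatase, read 4.37, 4.19 and 4.16 at 7 d, against 5.2, 5.27 and 4.89 at 48 h, a log2 difference of -0.88 (standard error 0.10, limma adjusted p = 0.0416), and it was called without 48 h replicate 3, at -0.99. Cdh13, a cadherin without a cytoplasmic tail, had an adjusted p of 0.0416 in limma on a probe set other than its brightest, with a log2 difference of -0.40. The remaining genes by smallest p in this direction were Vps13b, Kctd15, Esrrb and Heg1, with log2 differences of -0.44, -0.38, -1.03 and -0.41 and adjusted p-values in limma of 0.117 to 0.167.

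**Figure D2:**
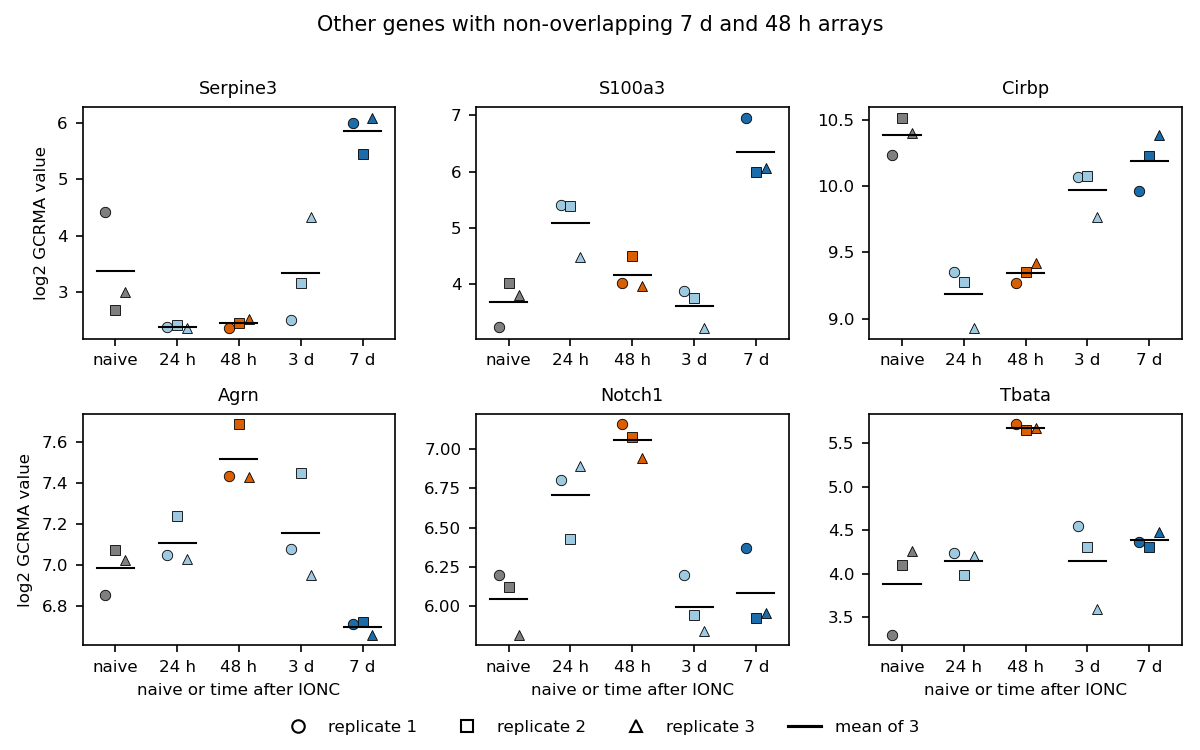
Log2 GCRMA value of 3 genes that were higher and 3 that were lower at 7 d than at 48 h after IONC on the y axis, by array, with naive replicates 1 to 3 and 24 h and 3 d after IONC for orientation, 1 point per array and a line at the mean of 3. In each panel the 7 d and 48 h arrays do not overlap, and Serpine3 reads 5.46 to 6.10 at 7 d, against 2.36 to 2.52 at 48 h.

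Genes of the interferon response had the lowest median of the lists described, and its size depended on 48 h replicate 1. Of 31 genes 28 were measured and 27 had a lower mean at 7 d. The median log2 difference was -0.99, with 5 members lower and 0 higher at an unadjusted p under 0.05 and none called. The mean of the list per array was 5.64, 5.29 and 4.90 at 7 d, against 7.51, 5.42 and 6.28 at 48 h, so that the groups overlapped, with 48 h replicate 1 the highest and 48 h replicate 3 next. Without that array the median was -0.51 and 0 members passed an unadjusted p of 0.05. Without 7 d replicate 3 the count was also 0. Without 48 h replicate 2, 18 members passed, without 48 h replicate 3 there were 3, and without 7 d replicate 2 there were 2.

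Mx2, a GTPase that blocks viruses, read 7.83, 6.65 and 5.68 at 7 d, against 10.51, 7.53 and 9.14 at 48 h. The arrays overlapped, with a log2 difference of -2.34 (standard error 0.83, limma adjusted p = 0.499). Ifi44, another interferon-induced gene, had a log2 difference of -0.90 (limma adjusted p = 0.526). Oas1a, which makes the messenger that activates RNase L, was named after its values were seen. It read 2.61, 2.63 and 2.59 at 7 d, against 7.61, 2.67 and 4.28 at 48 h. Tap1, a subunit of the peptide transporter for class I antigen presentation, read 3.73, 2.98 and 2.99 at 7 d, against 8.26, 3.94 and 3.96 at 48 h. Its other probe set differed by 0.02. Of the 14 measured genes of class I antigen processing, all had a lower mean at 7 d, with a median of -0.33, which was -0.05 without 48 h replicate 1 and -0.62 without 48 h replicate 2. Only Psmb9, a subunit of the immunoproteasome, had an unadjusted p under 0.05, at a log2 difference of -1.68 (limma adjusted p = 0.57).

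Promoters of many members of both lists share a sequence. Interferon-stimulated response elements, to which interferon-activated transcription factors bind, hold a repeat that was searched here on both strands as GAAA, any 2 bases and GAAA again, from 250 bases before to 50 after the gene start in RefSeq (build GRCr8). It was found in 14 of 20 matched promoters of the interferon list (70%) and 9 of 12 of the class I list (75%), and in 3.77% of 27457 promoters of the same length. A match describes the letters and is not a binding site. The windows below show the repeat in capitals for the genes named above that had a match, 5′ to 3′ on the strand of the gene. No match was found for Mx2 or Psmb9.
Oas1a, chr12:41330395-41330464, plus strand: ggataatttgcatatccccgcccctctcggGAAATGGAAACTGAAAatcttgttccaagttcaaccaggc
Ifi44, chr2:243303827-243303896, minus strand: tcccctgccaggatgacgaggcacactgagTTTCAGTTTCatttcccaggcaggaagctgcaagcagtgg
Tap1, chr20:4668625-4668694, minus strand: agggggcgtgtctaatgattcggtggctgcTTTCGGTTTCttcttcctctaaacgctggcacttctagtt
In the Oas1a window 2 overlapping matches form 1 run, 1 of the 2 matches of Ifi44 is shown, and in Ifi44 and Tap1 the repeat lies on the opposite strand, as TTTC, 2 bases and TTTC. The first matched base was 41 bases before the gene start in Oas1a, 26 before it in Ifi44 and 121 before it in Tap1.

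Cell cycle genes followed the same array. Of 30 genes 29 were measured, 6 were lower and 0 higher at an unadjusted p under 0.05, and the median log2 difference was -0.39. The list mean was 4.78, 4.75 and 4.73 at 7 d, against 6.10, 4.83 and 5.00 at 48 h, with no overlap, and 4.73 to 4.76 in naive replicates 1 to 3. Without 48 h replicate 1 the median was -0.02, but 6 members still passed an unadjusted p of 0.05, and without 48 h replicate 2 there were 10 and the median was -0.73. Cdkn3, a phosphatase of cyclin-dependent kinases, read 3.47, 3.68 and 3.42 at 7 d, against 6.49, 4.58 and 4.98 at 48 h, a log2 difference of -1.83 (limma adjusted p = 0.334). Mcm6, a subunit of the replicative helicase, read 5.26, 4.42 and 4.59 at 7 d, against 7.53, 5.81 and 5.49 at 48 h (limma adjusted p = 0.489). In these 2 genes all 48 h arrays lay above all 7 d arrays. Mki67, the proliferation antigen Ki-67, named after its values were seen, read 3.69, 3.69 and 3.85 at 7 d, against 7.05, 4.24 and 4.95 at 48 h. A further pair of genes named after their values were seen was high in 48 h replicate 1 alone. Hmox1, the heme-degrading oxygenase, read 2.33, 2.29 and 1.95 at 7 d, against 7.93, 2.45 and 2.33 at 48 h. Nes, or nestin, a filament of progenitors and reactive glia, read 3.24, 3.23 and 3.30 at 7 d, against 7.08, 3.45 and 3.37 at 48 h.

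Some markers of other cells also differed in that array. S100a9, an abundant protein of neutrophils, read 3.23, 2.95 and 3.38 at 7 d, against 8.97, 5.26 and 3.38 at 48 h, and S100a8, its partner, 3.49, 3.41 and 3.56 at 7 d, against 6.68, 3.76 and 3.49 at 48 h. High values were not particular to 48 h replicate 1. At 24 h, S100a9 read 9.03, 9.17 and 2.99, and S100a8 7.63, 6.87 and 3.18. At 3 d, S100a9 read 5.61, 4.11 and 3.82. The mean of the 9 measured genes of T cells and neutrophils was 2.76 to 2.91 at 7 d, against 3.77, 3.03 and 2.84 at 48 h, and 0 of the 9 passed an unadjusted p of 0.05. The T cell markers Cd3e, Cd3d and Cd2 differed by 0.22, 0.02 and 0.03. The bipolar cell list averaged 9.11 to 9.21 at 7 d, against 8.31, 9.01 and 9.06 at 48 h, and the amacrine and horizontal cell list 7.30 to 7.39 at 7 d, against 6.81, 7.42 and 7.39 at 48 h, the lowest in replicate 1 in both. The part of these cells in the interferon and cell cycle values was not tested.

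**Figure D3:**
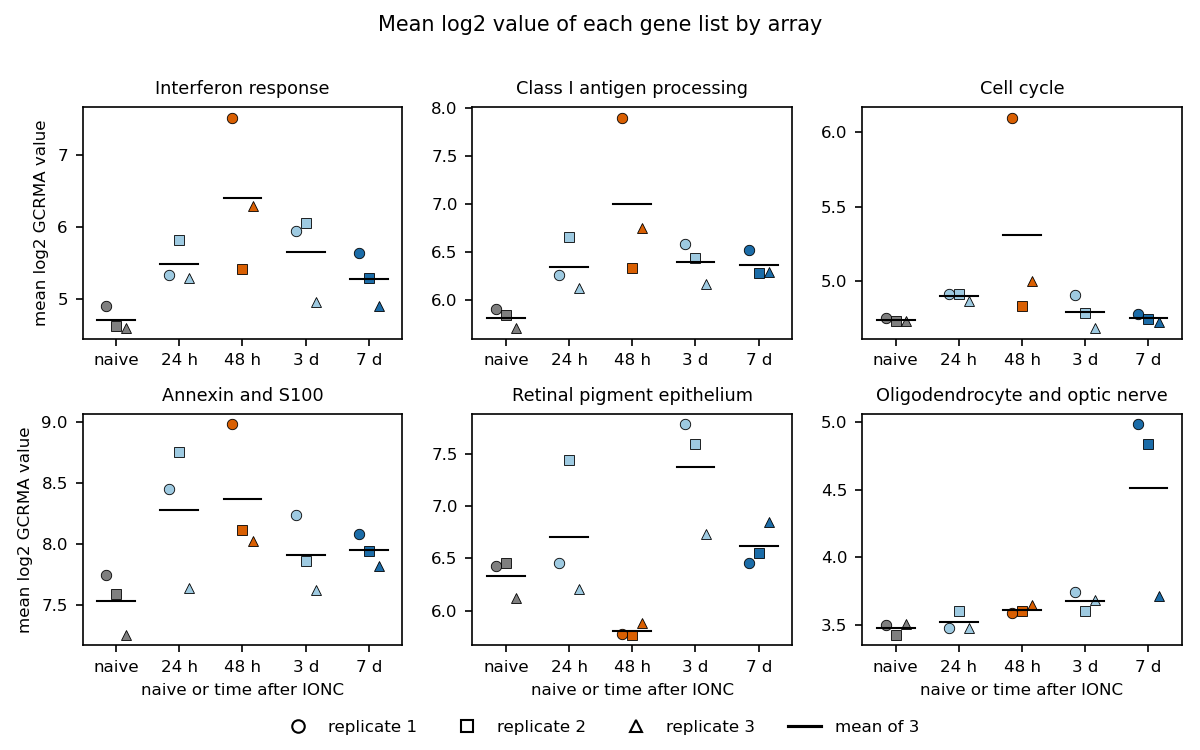
Mean log2 GCRMA value over the measured genes of 6 lists on the y axis, by array, in naive retinas (replicates 1 to 3) and at 24 h, 48 h, 3 d and 7 d after IONC, with a marker shape per replicate number and a line at the mean of 3. Replicate 1 at 48 h is the highest array for the first 4 lists (interferon 7.51), and replicates 1 and 2 at 7 d are the highest for the oligodendrocyte list (4.98 and 4.84).

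Other immune lists gave smaller differences. Of 8 genes of MHC class II, which present antigen to helper T cells, 7 had a lower mean at 7 d, with a median of -0.60, and -0.32 without 48 h replicate 1. RT1-Bb, a β chain of the rat class II molecule, read 2.91, 2.87 and 4.59 at 7 d, against 6.33, 5.77 and 5.69 at 48 h, a log2 difference of -2.47 (standard error 0.46, limma adjusted p = 0.211). Its 3 d values were 2.75, 2.74 and 3.62, near those at 7 d, and its other probe set differed by 0.06. RT1-DMb, which helps load the peptide, was lower by 0.93 (limma adjusted p = 0.658). The chemokine list had 1 member higher and 2 lower of 18 at an unadjusted p under 0.05 (4.53% and 4.92% of all genes). Its median was -0.31. Cx3cl1, the neuronal ligand of the microglial receptor, read 5.90, 5.75 and 5.74 at 7 d, against 6.17, 6.69 and 6.26 at 48 h (limma adjusted p = 0.334). Cxcl14 was higher by 0.56 (limma adjusted p = 0.499), and its other probe set differed by 0.03.

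Microglia and macrophage genes had 24 of 26 members measured, of which 1 was higher at an unadjusted p under 0.05 and 0 lower, with a median of -0.18. Csf1r, the receptor that keeps microglia alive, read 7.55, 6.97 and 6.75 at 7 d, against 7.03, 7.75 and 7.68 at 48 h, and Aif1, the Iba1 protein of microglia, 6.78, 5.38 and 5.04 at 7 d, against 5.69, 5.92 and 6.19 at 48 h. Both overlapped, and both lay above the means of naive replicates 1 to 3, which were 5.03 for Csf1r and 3.89 for Aif1. Itgb2, the common β chain of leukocyte integrins, was higher by 0.21 at a low signal (limma adjusted p = 0.554), and Coro1a, an actin-binding protein of leukocytes, was lower by 0.71 (limma adjusted p = 0.595). Of 15 complement genes 1 passed an unadjusted p of 0.05, higher at 7 d, as did 4.53% of all genes. It was Cd59b, a shield against complement, at 10.42, 10.46 and 10.48 at 7 d, against 9.62, 10.13 and 10.28 at 48 h (limma adjusted p = 0.489), and the median was 0.00. Cd55, another shield, differed by 0.07.

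Annexin and S100 genes, which bind calcium and membranes, had a median of -0.49, and -0.14 without 48 h replicate 1. Of 18 members 1 was higher and 2 lower at an unadjusted p under 0.05. The higher one was S100a3, which read 6.96, 6.0 and 6.07 at 7 d, against 4.03, 4.50 and 3.97 at 48 h. The groups lay more than a log2 unit apart, and 3 d, at 3.89, 3.76 and 3.23, lay with 48 h. The log2 difference was 2.18 (standard error 0.34, limma adjusted p = 0.117), not called, and 24 h stood between at 5.41, 5.40 and 4.49. S100a6, a calcium-binding protein of proliferating cells, was lower by 1.2 (limma adjusted p = 0.529), without overlap.

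Serpine3, of the serpin family of protease inhibitors, was the gene with the smallest p among those higher at 7 d. It read 6.0, 5.46 and 6.10 at 7 d, against 2.36, 2.45 and 2.52 at 48 h. Its log2 difference was 3.41 (standard error 0.38, 95% confidence interval 2.55 to 4.27, limma adjusted p = 0.0416). No fold is given, since the 48 h values lie near the low end of the signal range. At 3 d the arrays spread over 2.5, 3.16 and 4.34, and naive replicates 1 to 3 read 4.42, 2.68 and 2.99. Scg2, a secretogranin stored in dense-core vesicles of neurons, read 12.86, 12.85 and 12.82 at 7 d, against 12.21, 12.49 and 12.38 at 48 h, a log2 difference of 0.49 (standard error 0.07, limma adjusted p = 0.0963). Vps37a, of a complex that sorts membrane cargo for degradation, was higher by 0.50 (limma adjusted p = 0.0917).

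Several genes that were higher at 7 d lay at 48 h below naive replicates 1 to 3, though not always below naive replicates 4 and 5. Cirbp, an RNA-binding protein induced by cooling, read 9.96, 10.23 and 10.38 at 7 d, against 9.27, 9.35 and 9.42 at 48 h, and naive replicates 1 to 3 read 10.23, 10.52 and 10.40. Naive replicates 4 and 5 read 6.71 and 7.12, below every 48 h array. The log2 difference was 0.84 (limma adjusted p = 0.157) on the brightest probe set, and its 3 probe sets ranged over -0.17 to 0.84. Arhgef12, a guanine nucleotide exchange factor, read 6.90, 6.86 and 6.81 at 7 d, against 5.79, 5.6 and 5.86 at 48 h, with 6.72 to 7.16 in naive replicates 1 to 3 and 5.00 and 5.39 in naive replicates 4 and 5 (limma adjusted p = 0.201). Ddx6, an RNA helicase of processing bodies, Bmpr1a, a receptor for bone morphogenetic proteins, Kdm5b, a histone demethylase, and Id2, an inhibitor of helix-loop-helix factors, were named after their values were seen. Their log2 differences were 1.39, 1.49, 0.62 and 0.96, none called, and all 4 were without overlap. Ddx6 read 10.49, 10.42 and 10.41 at 7 d, against 8.74, 9.13 and 9.28 at 48 h, with 10.75 to 11.16 in naive replicates 1 to 3 and 8.00 and 9.01 in naive replicates 4 and 5. Its 3 probe sets ranged over 0.09 to 1.39. The 3 d values of 10.48, 10.39 and 10.38 were already at the 7 d level.

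The other genes of this direction by smallest p had differences of less than 1.5-fold. Taf1b, of the initiation complex of RNA polymerase I, was higher by 0.39, Tbp, the TATA-binding protein, by 0.30, and Cdk7, a kinase of transcription factor IIH, by 0.36. Naa20, the catalytic subunit of an N-terminal acetyltransferase, was higher by 0.28, Wwp1, a ubiquitin ligase, by 0.39, and Lamtor5, of the complex that anchors mTORC1 at lysosomes, by 0.28. Their adjusted p-values in limma lay between 0.173 and 0.211, and none was called. The other probe set of Wwp1 differed by 0.04.

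Markers of tissue next to the neural retina differed between the arrays. Of 9 measured genes of the retinal pigment epithelium, the pigmented sheet behind the photoreceptors, all had a higher mean at 7 d, 6 without overlap, where 7.16% of all genes did not overlap in this direction. The median log2 difference was 0.30, and 0.45 without 7 d replicate 2. Rgr, an opsin of that epithelium, read 8.33, 9.10 and 9.18 at 7 d, against 7.40, 6.84 and 7.41 at 48 h (log2 difference 1.65, limma adjusted p = 0.167). Ttr, or transthyretin, which carries thyroid hormone and retinol-binding protein, read 10.60, 11.15 and 11.41 at 7 d, against 10.05, 9.81 and 9.69 at 48 h (log2 difference 1.2, limma adjusted p = 0.201). Rpe65, the isomerase of the visual cycle, named after its values were seen, read 8.18, 7.73 and 9.17 at 7 d, against 5.29, 6.58 and 6.41 at 48 h (log2 difference 2.27, limma adjusted p = 0.341). The list mean was 6.46, 6.55 and 6.85 at 7 d, against 5.78, 5.77 and 5.88 at 48 h. It was 6.73 to 7.78 at 3 d, 6.21 to 7.44 at 24 h and 6.12 to 6.45 in naive replicates 1 to 3, so that 48 h held the lowest arrays of the course. How much pigment epithelium each pool held was not tested.

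Oligodendrocyte genes were high in 2 of the 7 d arrays. The rat retina holds no myelin, which starts behind the eye. Cldn11, a tight-junction protein of myelin, read 8.31, 7.66 and 3.83 at 7 d, against 3.19, 3.17 and 3.42 at 48 h, and Mobp, another myelin protein, named after its values were seen, 8.36, 7.20 and 2.99 at 7 d, against 2.46, 2.45 and 2.54 at 48 h. Replicates 1 and 2 were thus far above replicate 3. Without replicate 3 both were called, at log2 differences of 4.72 for Cldn11 and 5.30 for Mobp, and with all arrays neither was (limma adjusted p = 0.412 and 0.427). A second probe set of Cldn11 differed by 0.02. Mbp, the basic protein of myelin, read 7.39, 7.22 and 7.09 at 7 d, against 6.28, 7.29 and 7.27 at 48 h, and Mag, a myelin adhesion protein, was higher by 0.25 at the bottom of the range. The median of the 9 measured genes was 0.23, and 0.04 without 7 d replicate 2. The part of such tissue in the 7 d values was not tested.

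Lists of photoreceptors and bipolar cells lay slightly above 48 h. Of 22 measured genes of rod phototransduction 4 were higher and 0 lower at an unadjusted p under 0.05 (4.53% and 4.92% of all genes). The median was 0.10. Grk1, a kinase of photoreceptors, read 9.77, 10.60 and 10.70 at 7 d, against 9.23, 9.63 and 9.60 at 48 h, a log2 difference of 0.87 (limma adjusted p = 0.374), with 11.38 to 11.42 in naive replicates 1 to 3 and 10.36 and 10.74 in naive replicates 4 and 5. Cnga1, a subunit of the rod channel, was higher by 0.18 (limma adjusted p = 0.517). All 6 measured bipolar cell genes had a higher mean at 7 d, with a median of 0.31. Prkca, the protein kinase C of rod bipolar cells, had a log2 difference of 0.96 (limma adjusted p = 0.437) and Trpm1, their transduction channel, of 0.59 (limma adjusted p = 0.522), both with overlap and both lowest in 48 h replicate 1.

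**Figure D4:**
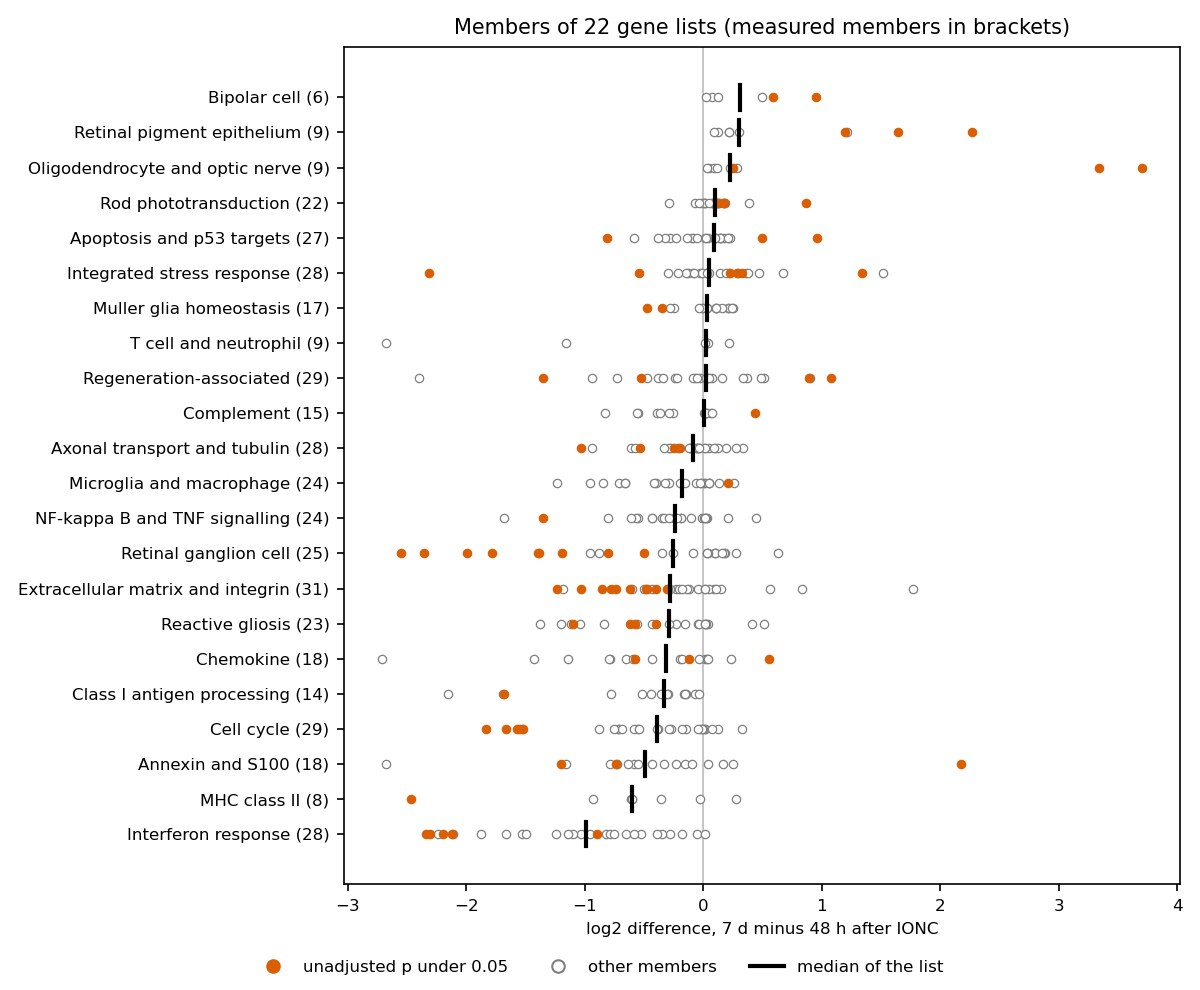
Log2 difference of 7 d minus 48 h after IONC on the x axis for every measured member of 22 gene lists, ordered by the median of the list, with orange points for an unadjusted limma p under 0.05 and a bar at the median. Medians run from 0.31 for bipolar cells to -0.99 for the interferon response, and the ganglion cell list has a tail of 9 orange points, all lower at 7 d.

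Genes of cell death and of TNF signalling, which the study followed by other methods, showed no call. Of 24 measured genes of NF-κB and TNF signalling 1 was lower at an unadjusted p under 0.05, with a median of -0.23. Tnfrsf12a, the receptor for the cytokine TWEAK, read 7.00, 6.34 and 6.22 at 7 d, against 8.74, 7.69 and 7.19 at 48 h. The groups did not overlap, and both lay above naive replicates 1 to 3 at 4.12 to 4.91. The log2 difference was -1.35 (standard error 0.42, limma adjusted p = 0.45). Tnfaip3, an inhibitor of NF-κB, was higher by 0.45 (limma adjusted p = 0.581). Of 27 measured genes of apoptosis and p53 targets 2 were higher and 1 lower at an unadjusted p under 0.05 (4.53% and 4.92% of all genes). The median was 0.09. Bcl2l1, which protects mitochondria in apoptosis, read 5.56, 5.45 and 5.30 at 7 d, against 6.62, 6.47 and 5.65 at 48 h (log2 difference -0.81, limma adjusted p = 0.39), and its 3 probe sets ranged over -0.81 to 0.12. It was called without 48 h replicate 3, at -1.11. Ccng1, a cyclin induced by p53, was higher by 0.50 (limma adjusted p = 0.395).

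Among the other genes the study followed, the spread between pools was wide. Ccl2, a chemokine that draws monocytes, read 7.71, 3.33 and 3.34 at 7 d, against 9.92, 6.61 and 5.97 at 48 h, and Lcn2, an iron-trapping protein of inflamed tissue, 10.33, 9.21 and 8.80 at 7 d, against 11.92, 10.27 and 9.75 at 48 h. Both overlapped, and their log2 differences were -2.71 (standard error 1.7) and -1.2 (standard error 0.77). In both, replicate 1 was the highest of its group at either time. Ahr, the aryl hydrocarbon receptor, differed by 0.80, Tnfrsf1a, a receptor for TNF, by -0.81, Eef2k, the kinase of elongation factor 2, by -0.48, Fos, an immediate early factor, by -0.37 and Litaf, a lysosomal protein induced by lipopolysaccharide, by -0.19. Calr, or calreticulin, Clu, or clusterin, and Tradd, the adaptor of the TNF receptor, differed by -0.06, -0.01 and 0.02. Tradd was read at a low signal on 1390434_at, which the annotation assigns to it, while the paper states that its mRNA had no probes on the arrays. Its value therefore does not show stable expression. The adjusted p-values of these genes in limma were 0.619 to 0.983. Clusterin had a second probe set that differed by 0.85.

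The later course was then compared between the lesions, as the difference of 7 d minus 48 h after IONC minus the same after IONT, in a fit over 18 arrays. No array is shared between the 2 changes. Of 31042 probe sets 83 were called (0.267%), 31 higher (0.0999%) and 52 lower (0.168%) for IONC minus IONT. In the same fit 519 probe sets were called for 7 d against 48 h after IONT (1.67%), 277 higher (0.892%) and 242 lower (0.78%). The 83 calls fell to between 20 and 37 without IONT 7 d replicate 3 (20), IONT 7 d replicate 2 (22), IONC 7 d replicate 2 (28), IONT 48 h replicate 1 (29), replicate 2 (30) or replicate 3 (33), IONC 48 h replicate 2 (33) or IONC 3 d replicate 1 (37), were 51 without IONC 7 d replicate 3, and 58 to 119 without any other array.

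Atf3, a transcription factor induced by stress and nerve injury, read 8.28, 8.23 and 8.29 at 7 d after IONC, against 7.68, 7.12 and 7.32 at 48 h. After IONT it read 7.19, 6.91 and 7.29 at 7 d, against 9.27, 9.46 and 9.52 at 48 h. The sign of the change thus differed, with log2 differences of 0.90 after IONC and -2.29 after IONT. The difference between the lesions was 3.19 (standard error 0.19, limma adjusted p = 4.77e-06). Naive replicates 1 to 3 read 9.32, 9.45 and 9.34, above every IONC array shown. Jun, its partner in injured neurons, differed by 0.03 after IONC and by -1.48 after IONT (difference 1.51, limma adjusted p = 0.00452).

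Genes of the integrated stress response, by which cells slow translation and make amino acids, had 4 called differences between the lesions. Of 28 measured members 4 were higher and 2 lower at 7 d than at 48 h after IONC at an unadjusted p under 0.05, with a median of 0.05. After IONT the median was -0.45, with 10 members called lower (171 of all 14217 genes and 0.78% of all probe sets) and 1 higher (148 genes and 0.892%). The difference was called for 4 members, all higher for IONC minus IONT (19 of all 14217 genes and 0.0999% of all probe sets). Mthfd2, a mitochondrial enzyme of folate metabolism, read 4.57, 6.58 and 7.21 at 7 d, against 5.58, 4.84 and 3.38 at 48 h after IONC, and 2.90, 2.41 and 2.86 at 7 d, against 6.74, 7.06 and 6.91 at 48 h after IONT. The difference was 5.70 (limma adjusted p = 0.00597), while the IONC arrays overlapped. Trib3, a pseudokinase of this pathway, differed by 1.34 after IONC and -1.49 after IONT (difference 2.84, limma adjusted p = 0.00881), and Cebpg, a bZIP factor, by 0.28 and -1.2 (difference 1.48, limma adjusted p = 0.00134). The fourth was Slc38a2, an amino acid transporter, at a difference of 0.99. Nupr1, a small stress protein of the list, had log2 differences of -2.31 after IONC (limma adjusted p = 0.39) and -0.37 after IONT. After IONC it read 5.64, 4.24 and 5.08 at 7 d, against 8.40, 6.78 and 6.70 at 48 h. Its promoter holds the element TGATGCAA, to which factors of this pathway bind, on the opposite strand 55 bases before the start (GRCr8), in capitals here.
Nupr1, chr1:190645919-190645986, minus strand: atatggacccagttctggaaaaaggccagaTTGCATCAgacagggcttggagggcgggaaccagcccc
The element was found on either strand in 4 of 25 matched promoters of the list (16%), and in 0.743% of all 27457. The 4 were those of Cars1, Chac1, Herpud1 and Nupr1, none of which had a called difference between the lesions.

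In the other direction, 2 of 22 measured genes of rod phototransduction and 1 of 11 of cone phototransduction were among the 52 probe sets called lower (0.168%). Over all 14217 genes, 24 were called lower. Esrrb, a nuclear receptor of rods, read 8.96, 9.42 and 9.24 at 7 d, against 9.91, 10.31 and 10.48 at 48 h after IONC. After IONT it read 11.31, 11.89 and 11.86 at 7 d, against 7.94, 8.04 and 8.16 at 48 h. The difference was -4.67 (standard error 0.26, limma adjusted p = 2.94e-06). Opn1sw, the short-wavelength opsin of cones, read 7.86, 8.48 and 8.45 at 7 d, against 7.82, 7.96 and 8.03 at 48 h after IONC, and 9.16, 9.59 and 9.42 at 7 d, against 6.17, 5.84 and 5.76 at 48 h after IONT (difference -3.14, limma adjusted p = 0.000579). Plpp2, a lipid phosphatase, differed by 0.02 after IONC and 2.16 after IONT (difference -2.14, limma adjusted p = 0.000424). Hk2, a hexokinase of photoreceptors, had a difference of -3.19 and Pde8a, a phosphodiesterase of cyclic AMP, of -2.70 (limma adjusted p = 0.00659 and 0.00452). Atf3, Cebpg, Esrrb, Opn1sw and Plpp2 kept their call without any 1 array of the 12 compared. Mthfd2, Trib3, Hk2, Jun and Pde8a lost it without 1 or more of them, among them IONT 7 d replicates 2 and 3, with differences of 5.54 and 5.77 for Mthfd2 and 1.56 and 1.5 for Jun. Mthfd2 and Trib3 lost it without any 1 of the 6 IONT arrays.

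Of the 25 measured ganglion cell genes, 0 were called after IONC, where 14 had a lower and 11 a higher mean at 7 d, and 7 were called lower after IONT (171 of all 14217 genes and 0.78% of all probe sets). No difference between the lesions was called. Nrn1 read 3.88, 3.98 and 3.80 at 7 d, against 6.53, 7.39 and 5.93 at 48 h after IONT. It fell there by 2.73 (limma adjusted p = 0.000268), and the difference was 0.38 (standard error 0.43, limma adjusted p = 0.939). Slc17a6 read 6.36, 5.29 and 5.96 at 7 d, against 9.54, 9.69 and 9.47 at 48 h after IONT. It fell by 3.70 (limma adjusted p = 3.47e-05), with a difference of 1.70 between the lesions (standard error 0.42, limma adjusted p = 0.0851). For Nefl the fall after IONT was by 2.39 (limma adjusted p = 1.82e-05) and the difference 1.00 (limma adjusted p = 0.0988).

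**Figure D5:**
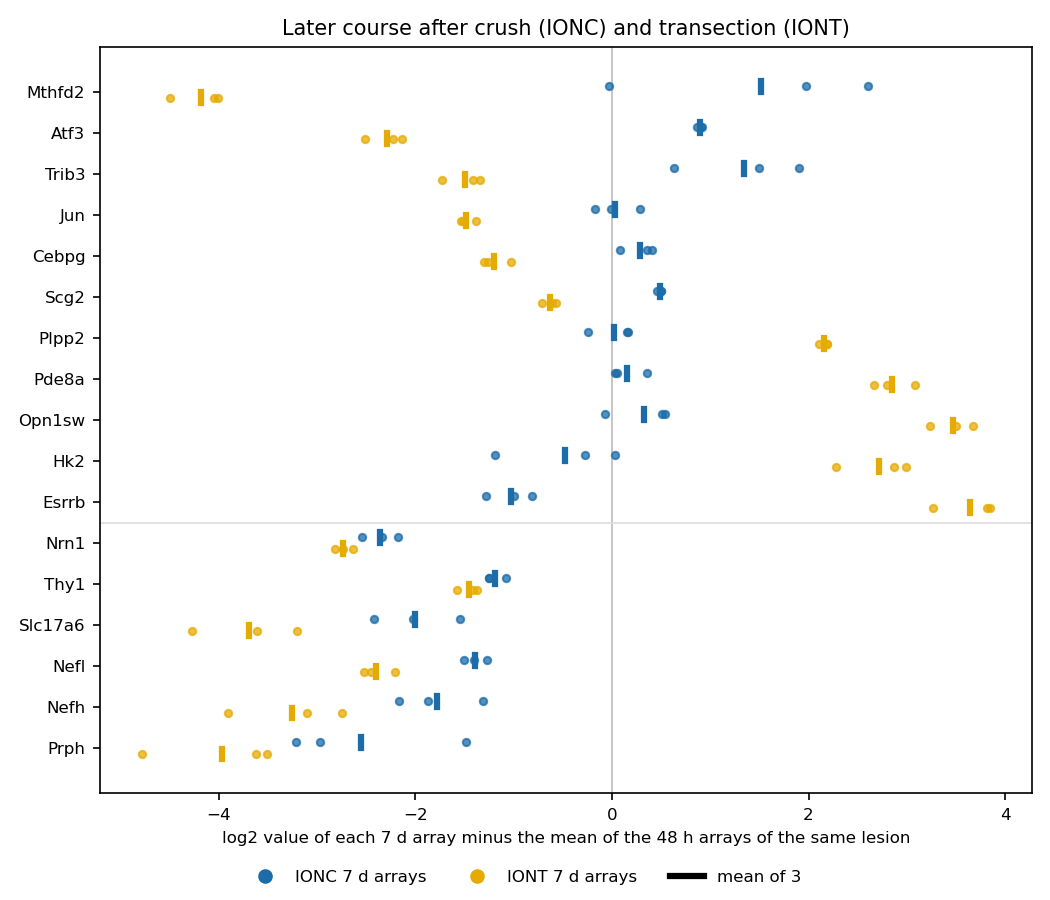
Log2 value of each 7 d array minus the mean of the 3 arrays at 48 h of the same lesion on the x axis, for 17 genes, with IONC above IONT in each row, 1 point per 7 d array and a bar at their mean. Atf3 lies at 0.90 for IONC and -2.29 for IONT and Esrrb at -1.03 and 3.64, while the 6 ganglion cell genes in the lower block lie to the left of 0 after both lesions.

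The position at 24 h relative to naive replicates 1 to 3 was then counted for the probe sets that differed most between 7 d and 48 h. The 24 h arrays entered the fit through their spread only, and the counts do not say whether 7 d had returned to the naive level. Of 97 probe sets at least 2-fold higher at 7 d than at 48 h without overlap, 55 (56.7%) had been at least 1.2-fold below naive at 24 h and 10 above. Of 91 at least 2-fold lower at 7 d without overlap, 47 (51.6%) had been above naive at 24 h and 11 below. Over all 31042 probe sets 14.8% were below naive at 24 h and 10.4% above. With all 5 naive arrays the share of 56.7% was 30.9% and that of 51.6% was 52.7%, so the first depends on which naive arrays are used. These are counts without a test. Of the called probe sets, Rhbdf2 lay above naive by 0.50 at 24 h, 0.98 at 48 h and 0.51 at 7 d, and 1394671_at had been below naive at 24 h, though not below the mean of all 5 naive arrays by 1.2-fold. Nrn1, Thy1 and Slc17a6 differed from naive by -0.62, -0.25 and -0.47 on the log2 scale at 24 h, and by -4.77, -2.65 and -2.76 at 7 d. Against all 5 naive arrays, with a mean of 9.12, Thy1 at 24 h, with a mean of 9.36, lay higher.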

How the data were processed

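Retinal RNA of 35 samples had been hybridised to Affymetrix RAE230.2 arrays, and the authors deposited log2 values per probe set made with GCRMA, which corrects background by probe sequence and normalises by quantiles. The version of GCRMA is not stated in these sources. From these values, 31042 probe sets were tested after 57 control probe sets were left out. Symbols came from the platform annotation of 2016, with 1 symbol for 20826 probe sets, several for 436 and none for 9780. A gene was represented by the probe set with the highest mean over all arrays.

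Changes were fitted with limma 3.58.1 in R 4.3.3 over the 12 IONC arrays at 24 h, 48 h, 3 d and 7 d, and over 18 arrays for the difference between lesions. P-values were adjusted by Benjamini-Hochberg over all probe sets, and the number of arrays limits the precision. Groups came from the sample labels. The named genes were the 15 in each direction with the largest change among those called without overlap, with the places left filled by the smallest p, up to 2 members by smallest p of each list described, up to 5 genes each way with the largest called difference between the lesions, and the genes the study followed by qRT-PCR or protein. Most others are said to be chosen after their values were seen or by no fixed rule. Cell type markers, Cdh13 and Slc38a2 were also named outside these rules. The members and lists were chosen with earlier results of these data known. The fit was tested on simulated data. Other array sets, thresholds, filters, normalisations and weights were tried, and each array was left out in turn.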

Additional observations from a re-analysis of the deposited data

Results flagged for a closer look

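The later course differed between the lesions for 12 genes of those named, each by the limma test of 7 d minus 48 h after IONC minus the same after IONT. In the direction of higher values for IONC, the difference was 5.70 for Mthfd2, 3.19 for Atf3, 2.84 for Trib3, 1.51 for Jun, 1.48 for Cebpg, 1.28 for Ccng1 and 1.11 for Scg2. The change was 0.50 after IONC and -0.78 after IONT for Ccng1 (limma adjusted p = 0.00452), and 0.49 and -0.63 for Scg2 (limma adjusted p = 0.000251), with the arrays of both lesions apart in opposite directions for Scg2. In the other direction the difference was -2.14 for Plpp2, -2.70 for Pde8a, -3.14 for Opn1sw, -3.19 for Hk2 and -4.67 for Esrrb. For Jun, Plpp2 and Pde8a the change after IONC was 0.03, 0.02 and 0.15, so that nearly the whole difference came from IONT.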

How the results depend on the processing

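Few calls limited what could be said of 7 d against 48 h after IONC, and the number of calls changed with most settings. The counts were 2 for 7 d against 48 h, 1 for 3 d against 48 h, 1 for 7 d against 3 d and 83 for the difference between the lesions. At an adjusted p under 0.05 without the log odds they were 8, 17, 2 and 292. With array weights they were 11, 18, 32 and 237, and with all 35 arrays 11, 0, 5 and 23. With only the 6 arrays of each pair compared, with all 15 IONC arrays, and with a trended and robust variance, the first 3 counts were 0, 0 and 0. A 1.5-fold limit left 1 and 0 in the first 2, and centring each array gave 1, 0 and 0. A filter on low values gave 2, 0 and 0. That filter took out Rhbdf2 and 1394671_at, which read below 4 on every array of the fit. Its 2 calls for 7 d against 48 h were therefore other probe sets. The difference between the lesions had 6 calls with only its 12 arrays. Replicate numbers were shared across groups. The deviations of same-numbered 7 d and 48 h arrays correlated at 0.145, 0.009 and 0.055, and those of differently numbered arrays at -0.129 to 0.0976. In the reactive gliosis list replicate 1 was the highest array at 48 h (8.54) and at 7 d (8.15), while at 24 h replicate 2 was (8.19). Whether arrays of the same number share more than the number was not tested. With the replicate block the counts were 0 for 7 d against 48 h and 49 for the difference between the lesions. Leaving out 1 array gave 1 to 43, 0 to 35, 0 to 9 and 20 to 119 calls.

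Of the list counts at an unadjusted p under 0.05, with 9 ganglion cell, 5 interferon, 6 cell cycle and 10 matrix genes lower, only the 6 arrays gave 0 interferon and 1 cell cycle gene, all 15 IONC arrays 5 matrix genes, all 35 arrays 12 interferon and 5 matrix genes, and array weights 2 interferon genes. Leaving out 1 array gave 7 to 11, 0 to 18, 4 to 10 and 4 to 9. With all 5 naive arrays, 0 called probe sets were below naive at 24 h, and 30.9% of those 2-fold higher. The filter on low values gave list medians of 1.2 for the pigment epithelium and 1.81 for oligodendrocytes. Signs turned only for values near 0 that were not called. These were, with array weights, -0.014 for Jun, -0.00910 for Plpp2 and -0.12 for Gfap, with cyclic loess -0.013 for Tradd, and with the mean of all probe sets 0.42 for Clu. Leaving out 1 array gave -0.092 to 0.138 for Jun, -0.048 to 0.156 for Plpp2, -0.33 to 0.336 for Gfap, -0.27 to 0.12 for Calr, -0.128 to 0.073 for Clu and -0.45 to 0.065 for Litaf. Of the other values for single genes, 1977 kept their direction and side of the threshold, 25 gained a call and 62 lost one. The causes were not tested.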
